A study of Mus musculus with 6 samples.

Results

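The genes described here are the interferon-induced genes and the genes of the major histocompatibility complex (MHC) pathway in mouse kidneys after ischaemia-reperfusion injury (IRI), with and without the compound MK-8617. Members were taken from the deposited gene table by symbol alone, through name patterns such as Ifi, Ifit, Ifitm, Isg, Oas, Irf, Stat, Gbp and H2 and single genes such as Bst2, Ddx58, Rsad2, Tap1 and Nlrc5. Of 146 annotated mouse symbols that fit those patterns, 46 are among the 7340 genes of the table, 33 of them interferon-induced and 13 of the MHC group, and the 2 classes are described apart. Only genes whose unadjusted p was under 0.05 in the comparison the authors ran are in the table, so every member had already been selected as different before any test made here. Symbols outside the table were not analysed here.

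RNA was sequenced from 6 kidney samples of wild-type (WT) mice, 3 labelled IRI and 3 labelled IRI with MK8617. In IRI the blood supply of the kidney is stopped and then restored. MK-8617 is an inhibitor of HIF prolyl hydroxylase, the oxygen-dependent enzyme that leads to the breakdown of hypoxia-inducible factor (HIF), and all 6 kidneys had the injury, so every difference below is between injured kidneys. Dose, age and time after injury are not given in the labels, and the column headers of the deposited table carry a tag, 1d, that the labels do not explain. No uninjured kidney was analysed here. Nothing in the labels says whether replicates were separate animals, so the spread behind the p-values may be technical.

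Interferons are cytokines that cells release on sensing viral or displaced self nucleic acid. Their receptors act through JAK kinases, which phosphorylate STAT proteins. Complexes of STAT proteins with IRF9 bind the interferon-stimulated response element (ISRE) of target promoters, while STAT dimers formed after interferon gamma bind the gamma-activated sequence (GAS). The induced genes encode antiviral effectors, RNA sensors and the transcription factors that keep the response going. MHC class I molecules show peptides from inside the cell to cytotoxic T cells on nearly every cell type, and class II molecules show ingested peptides to helper T cells, mainly on macrophages, dendritic cells and B cells. Injured kidney tubules and the leukocytes that enter the kidney after ischaemia can both express these genes.

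The ISRE is shown in 6 promoters because it is the sequence through which interferon is known to act on these genes. The sequences are RefSeq's, on build GRCm38.p6, from windows that reach 250 bases before to 50 bases after a transcription start, and each line gives 80 bases, 5′ to 3′ on the gene's strand, with matches to the ISRE letters in capitals. The letters searched were GAAA, any 2 bases, GAAA on either strand, so that the reverse form reads TTTC, any 2 bases, TTTC, and overlapping matches run together.
Bst2 (chr8:71537552-71537631, minus strand): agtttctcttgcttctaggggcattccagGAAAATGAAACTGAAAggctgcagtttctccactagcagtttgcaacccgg
Ifit3 (chr19:34583372-34583451, plus strand): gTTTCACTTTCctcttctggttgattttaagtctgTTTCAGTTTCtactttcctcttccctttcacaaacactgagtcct
Ifit3b (chr19:34607768-34607847, plus strand): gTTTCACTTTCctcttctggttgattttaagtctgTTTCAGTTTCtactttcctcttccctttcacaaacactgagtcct
Isg15 (chr4:156200840-156200919, minus strand): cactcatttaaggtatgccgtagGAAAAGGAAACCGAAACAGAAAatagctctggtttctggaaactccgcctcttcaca
Oas1a (chr5:120907526-120907605, minus strand): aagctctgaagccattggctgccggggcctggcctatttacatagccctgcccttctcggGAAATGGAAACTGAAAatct
H2-T22 (chr17:36042889-36042968, minus strand): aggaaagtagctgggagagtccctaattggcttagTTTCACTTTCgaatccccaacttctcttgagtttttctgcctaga
The stretches of Ifit3 and Ifit3b are the same in 80 of 80 bases, and the longest run shared by their windows is 169 bases. Windows were matched for 25 interferon-induced and 9 MHC members. The ISRE letters were found in 14 of the 25 (Bst2, Ifit3, Ifit3b, Oas1a, Oas1c, Isg15, Ifitm3, Rsad2, Eif2ak2, Igtp, Gbp2, Gbp3, Ddx58 and Irf2) and in 1 of the 9 (H2-T22), against 3.99% of the 27025 genes with a window and 3.44% of all 32851 windows. The GAS letters, TTCNNNGAA, were found in 11 of the 25 and 0 of the 9, against 9.55% of all genes. The core letters of the hypoxia response element that HIF binds, ACGTG, were found in 3 of the 25 (Isg20, Igtp and Ifi30) and 2 of the 9 (H2-T22 and H2-Q7), against 21.8% of all genes. A match describes the letters in the window and is not a measured binding site. The ISRE was present in 9 of the 16 matched interferon-induced members that fell, a share like the 14 of all 25 matched members. It was also present in Irf2, which rose.

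The libraries held 16835541 to 19508497 counted reads. Values are normalised reads, the gene counts that the authors divided by the size factor of each library, and they are listed in the order of replicates 1, 2 and 3. Differences are log2 fold changes of IRI with MK-8617 over IRI on the log2(normalised reads + 1) scale, ± their standard error, fitted with limma across the 6961 genes that passed a filter on low reads. "Fell" and "rose" are used for an adjusted p below 0.05. Of the markers that define kidney, 4 of 12 proximal tubule, 6 of 10 distal and 3 of 6 podocyte genes are in the table, and none of these was at 0 in any library.

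Interferon-induced genes were mostly lower with MK-8617. Of 33 members, 23 fell (69.7%), 2 rose and 8 did not pass the test, where 38.7% of all tested genes fell and 35.7% rose. The median change was -0.86, against -0.31 over all tested genes, and 30 of the 33 values were negative. In 26 members every library with MK-8617 lay below every IRI library, a pattern seen in 47.6% of all tested genes. The MHC members were mostly lower too. Of 12 tested members 9 fell, 0 rose and 3 did not pass, the median was -0.55, and 11 of the 12 had no overlap between the groups. Over all tested genes the groups overlapped in only 525 of 6961, so a lack of overlap was usual in this table. A negative value was found in 3641 of the 6961 tested genes. All 12 MHC values were negative, and all tested MHC values stayed negative under each of 19 other settings of the analysis. Some were small: with trends on transcript length and GC content removed, H2-K1 was at -0.06 and H2-Ab1 at -0.07, and neither passed. In kidney tissue, fewer cells of a type and less RNA per cell cannot be told apart. The counts that passed changed when a library was left out. Without MK-8617 replicate 1, 16 interferon-induced and 4 MHC members fell, with medians of -0.95 and -0.6. Without IRI replicate 2, 17 and 5 fell, with medians of -0.78 and -0.47. Each such fit has fewer libraries than the main fit. In the authors' deposited table, 27 of the 33 interferon-induced members and 10 of the 12 MHC members had an adjusted p below 0.05 and a negative change, as did H2-Bl, which was not tested here.

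**Figure D1:**
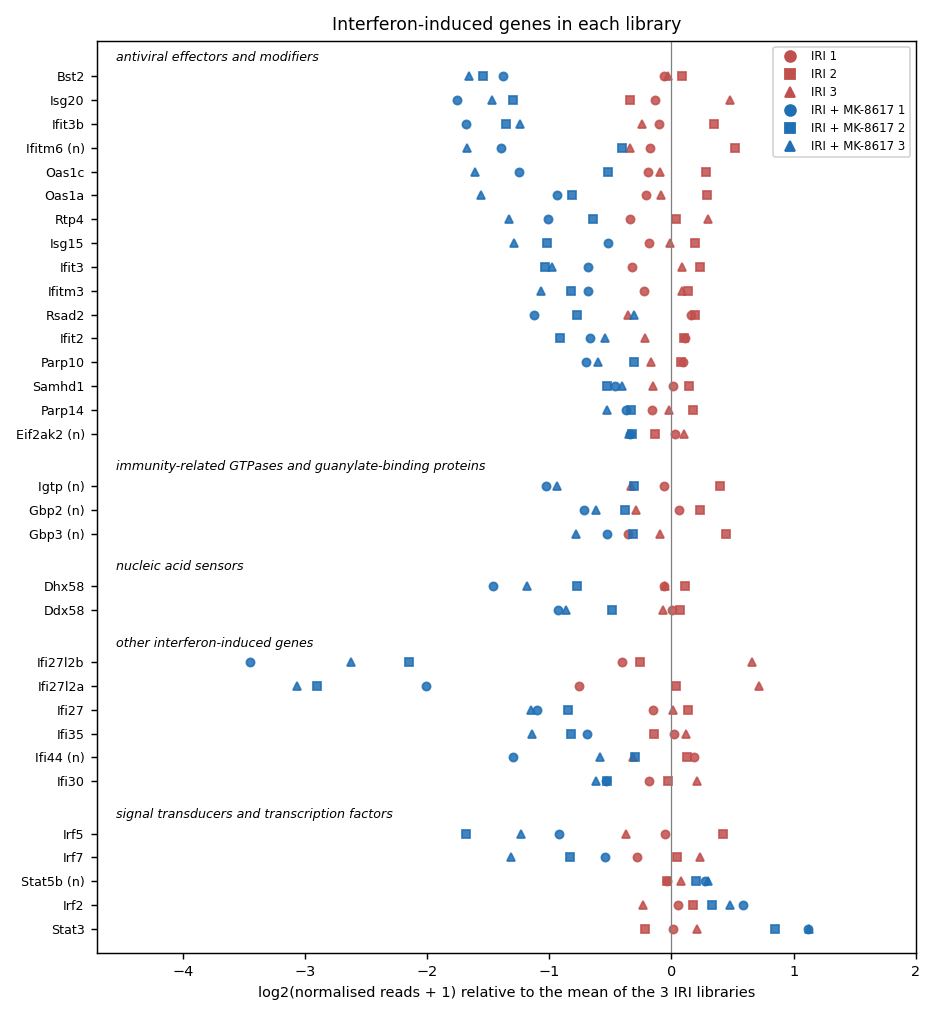
Each row is 1 interferon-induced member described in the text, grouped by role, and each point is 1 library, placed by its log2(normalised reads + 1) relative to the mean of the 3 IRI libraries (red, IRI; blue, IRI with MK-8617; circle, square and triangle, replicates 1, 2 and 3; n marks members that did not pass the test). The blue points lie right of all red points in 3 rows (Stat5b, Irf2 and Stat3), overlap with them in 4 (Rsad2, Igtp, Gbp3 and Ifi44) and lie left of them in the others.

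Of the 16 antiviral effectors, the proteins that block viral entry, replication or release, 14 fell and all 16 had negative values, with a median of -0.92. Of all tested genes 38.7% fell, and their median was -0.31. Bst2 encodes tetherin, which holds budding virus particles on the cell surface, and lies at chr8:71534255-71537456 (GRCm38). It had 679.6, 750.5 and 695.9 normalised reads in IRI and 271.5, 242.3 and 223.3 with MK-8617. The groups were far apart, and the lowest IRI library, replicate 1, was still more than double the highest treated library. Bst2 fell by 1.53 ± 0.12 on the log2 scale (adjusted p = 0.000111), the smallest adjusted p of any member, and its mean was 65.3% lower. Its mean FPKM, the level per length of transcript, was 44.2 in IRI and 15.1 with MK-8617. The effector count was 7 without MK-8617 replicate 1, and it was 8 without either IRI replicate 1, IRI replicate 2 or the third replicate with MK-8617.

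The IFIT genes, whose proteins bind viral RNA, lie side by side on chromosome 19, with Ifit2 at chr19:34550694-34576419, Ifit3 at chr19:34583531-34588731 and Ifit3b at chr19:34607970-34613401. Ifit3 had 250.8, 368.9 and 333.6 normalised reads in IRI and 194.7, 152.6 and 158.4 with MK-8617, a change of -0.90 ± 0.19 (adjusted p = 0.0078). Ifit3b, a near copy with the same promoter stretch, had 88, 120.2 and 79.6 against 28.7, 36.3 and 39.3, a change of -1.43 ± 0.27 (adjusted p = 0.00507). Ifit2 had 340.7, 337 and 271.3 against 197.7, 166.5 and 215.9, a change of -0.71 ± 0.16 (adjusted p = 0.0126). All 3 IFIT genes had no overlap between the groups. Reads from Ifit3 and Ifit3b may have been divided between them in counting, so their separate values are uncertain. Leaving out IRI replicate 1 ended the call of Ifit2 (-0.65).

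Ifitm3 restricts the entry of enveloped viruses at endosomal membranes and had the highest level per length of all members, a mean of 215 FPKM in IRI. It had 2203, 2822 and 2731 normalised reads in IRI and 1600, 1454 and 1225 with MK-8617, and fell by 0.86 ± 0.14 (adjusted p = 0.00225). Its groups did not overlap. With the trend of change on transcript length removed, its value was -0.13 and did not pass. Ifitm6, of the same family, was at 22.7, 37.3 and 20.1 in IRI and 9.2, 19.2 and 7.4 with MK-8617 (-1.15 ± 0.46, adjusted p = 0.0947). IRI replicate 3 and MK-8617 replicate 2 were almost level in Ifitm6, and without MK-8617 replicate 2 it passed at -1.53.

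Isg20, an exonuclease that degrades viral RNA, had 106, 92 and 163 normalised reads in IRI and 33.8, 47 and 41.5 with MK-8617. The lowest IRI library was above the highest treated library, and the change was -1.51 ± 0.28 (adjusted p = 0.00484). IRI replicate 3 was well above the other IRI libraries in Isg20. Isg15, a ubiquitin-like protein joined to other proteins during the response, fell by 0.95 ± 0.25 (adjusted p = 0.0207), and Rtp4, a chaperone with antiviral activity, by 0.99 ± 0.25 (adjusted p = 0.016). The call of Isg15 was lost without IRI replicate 2 (-0.85) or MK-8617 replicates 2 (-0.91) or 3 (-0.77), and that of Rtp4 without MK-8617 replicate 1 (-0.98) or 3 (-0.83).

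The active enzymes of the OAS family make the second messenger that activates RNase L, and activity was not measured here. Oas1a (-1.10 ± 0.29, adjusted p = 0.0219) and Oas1c (-1.13 ± 0.33, adjusted p = 0.0341) fell to a like degree. They are neighbours, at chr5:120896256-120907521 and chr5:120800194-120812514, and similar in sequence, so the division of reads between them is uncertain. Oas1c had 67.2, 93.8 and 71.9 normalised reads in IRI and 31.8, 53.4 and 24.5 with MK-8617. MK-8617 replicate 2 was the highest treated library in both genes. The call of Oas1a was lost without IRI replicate 2 (-0.96) or MK-8617 replicates 1 (-1.18) or 3 (-0.87). Oas1c lost its call without these and without IRI replicate 1, with values from -1.22 (without IRI replicate 1) to -0.88 (without MK-8617 replicate 3).

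Of the other 5 effectors 4 fell. Rsad2, or viperin, makes a chain-terminating nucleotide that stops viral polymerases. It had 512, 524.6 and 358.5 normalised reads in IRI and 209, 267.9 and 371.1 with MK-8617 (-0.74 ± 0.23, adjusted p = 0.0409). Rsad2 is the 1 member that fell although the groups overlapped, since MK-8617 replicate 3 was above IRI replicate 3. Without MK-8617 replicate 1 its value was -0.54 and did not pass, nor did it without MK-8617 replicate 2 (-0.72), IRI replicate 1 (-0.66) or IRI replicate 2 (-0.64), or by edgeR's quasi-likelihood test (-0.72). It did not pass either with TMM scaling (-0.67) or with a mean of at least 5 CPM required (-0.74). Samhd1, which depletes the nucleotides that reverse transcription needs, fell by 0.47 ± 0.11 (adjusted p = 0.0158). The ADP-ribosyltransferases Parp10 and Parp14 fell by 0.54 ± 0.14 and 0.41 ± 0.13 (adjusted p = 0.0184 and 0.0462). Parp14 had 415.5, 523.7 and 458.2 normalised reads in IRI and 358.6, 368.2 and 322.2 with MK-8617, and leaving out any 1 library ended its call, with values from -0.49 (without IRI replicate 1) to -0.32 (without IRI replicate 2). The call of Parp10 was lost without IRI replicate 1 (-0.49), MK-8617 replicate 1 (-0.45) or 3 (-0.50). That of Samhd1 was lost without IRI replicate 1 (-0.46) or 2 (-0.40), or MK-8617 replicate 1 (-0.47) or 2 (-0.43). Eif2ak2, the RNA-activated kinase PKR that halts translation, was at 435.4, 388 and 457.3 in IRI and 336, 339.4 and 335 with MK-8617 (-0.34 ± 0.12, adjusted p = 0.0646). Its 3 treated libraries were almost level, and all lay below the IRI libraries.

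None of the 3 GTPases passed the limma test. All 3 had an unadjusted p below 0.05, but the listed genes were selected by the authors on that threshold in the same libraries. It is therefore no support, and the authors' adjusted p-values rest on the p-values used for that selection. Igtp (-0.76) and Gbp2 (-0.59) passed by DESeq2 and in the authors' deposited table, where their adjusted p-values are 0.0329 and 0.0333, and 0 of the 3 passed by edgeR. Both also passed with adjustment over the tested genes alone, and Gbp2 passed with the length trend removed (-0.67). These proteins attack the vacuoles of intracellular pathogens and are induced mainly by interferon gamma. Igtp, an immunity-related GTPase, was at 156.2, 215.9 and 129.4 normalised reads in IRI and 79.9, 132.3 and 85.1 with MK-8617 (-0.75 ± 0.27, adjusted p = 0.0672). The guanylate-binding protein gene Gbp2 was at 225.3, 255 and 176.4 against 131.1, 166.5 and 140.4 (-0.57 ± 0.19, adjusted p = 0.0557). Gbp3 was at 153.3, 268.7 and 184.1 against 136.3, 158 and 113.8 (-0.54 ± 0.24, adjusted p = 0.137). IRI replicate 2 was the highest library and MK-8617 replicate 2 the highest treated library in each of the 3, and the groups overlapped in Igtp and Gbp3. Without IRI replicate 3, Igtp (-0.92) and Gbp2 (-0.72) passed, and Igtp also passed without MK-8617 replicate 2 (-0.98).

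Both RNA sensors in the table fell, where 38.7% of all tested genes fell. Ddx58 encodes RIG-I, the cytosolic sensor of viral RNA ends, and Dhx58 encodes LGP2, which modulates it. Ddx58, at chr4:40203773-40239828, had 1060, 1107 and 1006 normalised reads in IRI and 555.3, 755.6 and 581.6 with MK-8617, and fell by 0.76 ± 0.13 (adjusted p = 0.00328). Dhx58 had 93.7, 105.7 and 93.9 against 34.8, 56.6 and 42.5, and fell by 1.14 ± 0.26 (adjusted p = 0.0109). In both genes the 3 IRI libraries were close to each other, the groups did not overlap and MK-8617 replicate 2 was the highest treated library. The call of Ddx58 held in all 19 other settings, and that of Dhx58 in the 18 in which it was tested.

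The other interferon-induced genes held the largest changes. Ifi27, Ifi27l2a and Ifi27l2b are short neighbouring genes on chromosome 12 whose products are small hydrophobic membrane proteins. Ifi27l2a, at chr12:103442167-103443680, had 130.6, 226.8 and 364.3 normalised reads in IRI and 54.3, 28.8 and 25.5 with MK-8617, a change of -2.66 ± 0.41 (adjusted p = 0.00197). Ifi27l2b, at chr12:103450898-103457223, had 23.7, 26.4 and 50.8 against 2, 6.4 and 4.3, a change of -2.74 ± 0.50 (adjusted p = 0.00434) that rests on 2, 6 and 4 reads in the treated libraries. Ifi27, at chr12:103434211-103440239, had 1059, 1287 and 1188 against 548.1, 652.1 and 529.5, a change of -1.03 ± 0.12 (adjusted p = 0.000605). No group overlapped in the 3 genes, and IRI replicate 3 was the highest library in Ifi27l2a and Ifi27l2b but not in Ifi27. Reads may be divided between the 2 Ifi27l2 copies, so their separate values are uncertain.

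Ifi35, whose protein binds other interferon-induced factors, had 452.4, 402.6 and 484.1 normalised reads in IRI and 275.6, 250.8 and 201 with MK-8617, and fell by 0.89 ± 0.16 (adjusted p = 0.0035). Ifi30 encodes a lysosomal thiol reductase that opens disulphide bonds of antigens for class II presentation. It had 1763, 1965 and 2322 against 1378, 1387 and 1304, and fell by 0.56 ± 0.12 (adjusted p = 0.00738). Its treated libraries were almost level and all under the IRI libraries, but its value was -0.09 with the length trend removed. Ifi44 was at 273.5, 262.3 and 192.7 against 97.3, 195.3 and 159.5 (-0.73 ± 0.27, adjusted p = 0.0749), with MK-8617 replicate 2 above IRI replicate 3. Without IRI replicate 3 (-0.88) or MK-8617 replicate 2 (-0.94), Ifi44 passed.

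The signal transducers and transcription factors did not move together. Of 6 members 2 fell, 2 rose and 2 did not pass, with a median of -0.20, where 38.7% of all tested genes fell and 35.7% rose. Irf7, the factor that drives type I interferon genes, had 392.8, 491.9 and 561.7 normalised reads in IRI and 326.8, 267.9 and 191.4 with MK-8617, and fell by 0.90 ± 0.21 (adjusted p = 0.0136). Irf5, which acts below Toll-like receptors in macrophages and dendritic cells, had 248.9, 347 and 199.4 against 136.3, 80 and 109.5, and fell by 1.28 ± 0.26 (adjusted p = 0.00728). Both factors had no overlap between the groups.

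Stat3, the transducer of interleukin-6 family cytokines, rose and was the clearest exception among the members. It had 3318, 2829 and 3807 normalised reads in IRI and 7146, 5927 and 7183 with MK-8617, a rise of 1.03 ± 0.14 (adjusted p = 0.001). Each treated library was above all IRI libraries by a wide margin, and the rise held in all 19 other settings. Irf2, a factor that competes with IRF1 and damps interferon-induced transcription, had 322.7, 350.7 and 263.6 against 465.1, 391.7 and 433.8, a rise of 0.47 ± 0.15 (adjusted p = 0.0418). The groups of Irf2 did not overlap, but its call was lost when any library other than IRI replicate 2 was left out, with values from 0.35 (without IRI replicate 3) to 0.53 (without MK-8617 replicate 2). It did not pass with the length trend removed (0.37). Stat5b, a transducer of growth hormone and prolactin, was at 672.9, 672.2 and 727.6 against 834, 795.1 and 848.5 (0.26 ± 0.10, adjusted p = 0.0767), and its value was -0.07 with the length trend removed.

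Of the 13 MHC members, 12 lie on chromosome 17 between positions 33915899 and 36111658, the mouse H2 complex, and Nlrc5 is at chr8:94434356-94527272. Among class I genes 3 of 4 tested fell, where 38.7% of all tested genes fell. H2-K1, a classical class I heavy chain with a mean of 136 FPKM in IRI, the second highest level per length of the members, was at 6284, 6301 and 6353 normalised reads in IRI and 5360, 5364 and 4769 with MK-8617 (-0.29 ± 0.10, adjusted p = 0.0534). The IRI libraries were close together (SD 35.9 around a mean of 6312, n = 3), and the treated mean of 5165 was 18.2% lower without passing the test. H2-T22, a nonclassical class I gene recognised by some gamma delta T cells, had 1470, 1499 and 1619 against 1098, 1048 and 946.4, and fell by 0.57 ± 0.10 (adjusted p = 0.00338).

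The nonclassical class I genes H2-Q6 and H2-Q7 lie next to each other and are closely alike, so reads may be divided between them. H2-Q7 had 376.7, 408.1 and 365.2 normalised reads in IRI and 244.9, 291.4 and 255.2 with MK-8617 (-0.54 ± 0.13, adjusted p = 0.0151). H2-Q6 had 521.5, 536.5 and 457.3 against 352.4, 412 and 381.7 (-0.40 ± 0.12, adjusted p = 0.0382). Neither gene had an overlap between the groups. The call of H2-Q7 was lost without MK-8617 replicate 1 (-0.49), and that of H2-Q6 when any library other than IRI replicate 3 was left out, with values from -0.46 (without MK-8617 replicate 2) to -0.34 (without MK-8617 replicate 1). H2-Bl, annotated as a polymorphic pseudogene, was too low to be tested here, with 18.9, 7.3 and 9.6 normalised reads in IRI and 4.1, 1.1 and 0 with MK-8617. In the authors' deposited table its log2 change is -2.78 (adjusted p = 0.0409), and with no filter on low values 10 of 13 MHC members fell. H2-T-ps, a pseudogene named for the complex, had 135.3, 61.9 and 102.6 against 16.4, 25.6 and 22.3, and fell by 2.12 ± 0.35 (adjusted p = 0.0027), the largest change of the class.

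All 4 genes of peptide loading and class I transcription fell, with a median of -0.60, where 38.7% of all tested genes fell. Tap1 and Tap2 form the transporter that carries peptides into the endoplasmic reticulum, and Tapbp encodes tapasin, which bridges it to class I molecules. Tap2 had 480.8, 548.3 and 464 normalised reads in IRI and 328.9, 312.7 and 278.6 with MK-8617 (-0.70 ± 0.13, adjusted p = 0.00435). Tap1 had 386.2, 465.4 and 457.3 against 294, 369.3 and 266.9 (-0.50 ± 0.16, adjusted p = 0.0412). Tapbp had 1901, 2161 and 2170 against 1619, 1545 and 1678 (-0.36 ± 0.10, adjusted p = 0.023). The groups did not overlap in these 3 genes, and the call of Tap2 held in all 19 other settings. Nlrc5, the transactivator of class I genes, had 114.5, 116.6 and 81.5 against 58.4, 55.5 and 70.2 (-0.74 ± 0.24, adjusted p = 0.0476). The calls of the other 3 changed when some single libraries were left out. Tap1 passed only when MK-8617 replicate 2 was the library left out, with values from -0.59 (without IRI replicate 1) to -0.40 (without MK-8617 replicate 3) in the others, and Tapbp did not without IRI replicate 2 (-0.33) or MK-8617 replicates 1 (-0.36) or 2 (-0.33). Nlrc5 passed only when IRI replicate 3 was the library left out, with values from -0.84 (without MK-8617 replicate 3) to -0.65 (without IRI replicate 2) in the others, and it did not pass by edgeR's quasi-likelihood test (-0.76).

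Among the 3 class II genes only H2-DMb1 passed. H2-DMa and H2-DMb1 encode the chains of the DM molecule, which loads peptides onto class II, and H2-Ab1 encodes the beta chain of the class II molecule I-A. H2-DMb1 had 172.3, 260.5 and 185 normalised reads in IRI and 99.4, 117.4 and 72.3 with MK-8617, and fell by 1.09 ± 0.24 (adjusted p = 0.0107). H2-DMa was at 120.2, 160.3 and 87.2 against 73.8, 85.4 and 69.1 (-0.64 ± 0.26, adjusted p = 0.101). H2-Ab1 was at 599.1, 725 and 467.8 against 535.8, 451.5 and 336 (-0.44 ± 0.20, adjusted p = 0.165), and it is the 1 tested MHC member whose groups overlapped. IRI replicate 2 was the highest and IRI replicate 3 the lowest IRI library in H2-DMa and H2-Ab1, and without IRI replicate 3 H2-DMa (-0.86) and H2-Ab1 (-0.60) passed. With the length trend removed H2-DMa was at -0.53 and H2-Ab1 at -0.11, and neither passed. Whether class II and class I genes differed in their change was not tested.

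**Figure D2:**
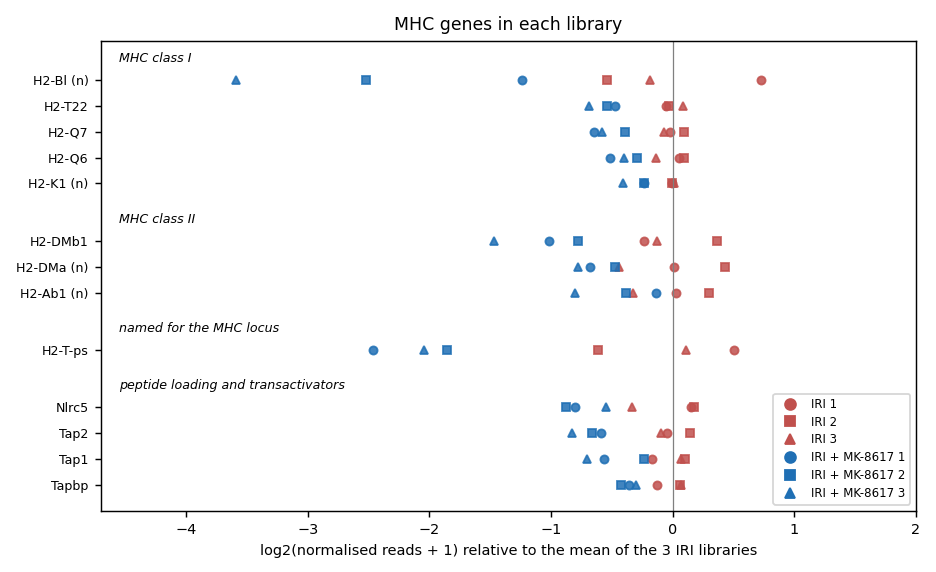
Rows are the 13 MHC members by role, and points are the 6 libraries, placed and marked as in the plot of interferon-induced genes. Except in H2-Ab1 every blue point lies left of every red point, with the widest gaps in H2-Bl and H2-T-ps, the 2 pseudogenes.

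The libraries of a group did not contribute equally. IRI replicate 2 was the highest IRI library in 19 of the 30 interferon-induced members with a negative change and in 8 of the 12 MHC members, and over all tested genes with a negative change it was the highest in 51.5%. MK-8617 replicate 3 was the lowest treated library in 16 of the 30 and 7 of the 12, and in 1644 of the 3641 tested genes with a negative change. Summed over the interferon-induced members, FPKM came to 532, 635 and 645 in IRI and 378, 361 and 332 with MK-8617. Summed over the MHC members it came to 263, 275 and 261 against 205, 204 and 185. Both sums had no overlap between the groups, but a few genes make up much of each. Ifitm3 and Ifi30 had means of 215 and 116 FPKM in IRI, and neither passed with the length trend removed. H2-K1, in the MHC sum, had a mean of 136 FPKM in IRI and did not pass the test.

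Most pan-leukocyte and macrophage markers in the table fell, where 38.7% of all tested genes fell, while the dendritic cell markers rose. Of 10 pan-leukocyte markers 7 are in the table and 6 fell (3 without MK-8617 replicate 3, 4 without MK-8617 replicate 1), and their summed FPKM was 76.4, 107 and 56.8 in IRI and 26.3, 36 and 23.4 with MK-8617. Of 16 macrophage and monocyte markers 13 are in the table, of which 9 fell and 2, Mertk and Cd14, rose, and 6 fell without IRI replicate 1, IRI replicate 2 or the first replicate with MK-8617. Their summed FPKM was 183, 241 and 138 against 153, 157 and 137, which overlapped because Cd14 rose by 1.77 while Lyz2 fell by 3.02. Among the pan-leukocyte and macrophage markers, Fcer1g (-0.36), Ly6c2 (-1.02) and Aif1 (-1.22) did not pass with the length trend removed, while Csf1r (-0.93) then did. Of 10 neutrophil markers 3 are listed, of which S100a8 and S100a9 fell and Ngp rose. The groups overlapped in S100a8, and neither S100 gene passed without MK-8617 replicate 1, without MK-8617 replicate 3 or with the length trend removed (-0.39 and -0.40). S100a8 did not pass by edgeR or without IRI replicate 1 or 2 either. The summed FPKM of the 3 was 51 to 79.1 against 19 to 46.2, with Ngp at 0 in IRI replicate 2. The dendritic cell markers Cd209a and Batf3, the 2 of 8 in the table, rose (Cd209a not without MK-8617 replicate 3), with sums of 0.875 to 1.61 against 2.9 to 3.88. Of 12 T and NK cell markers only Gzma is listed, at 0 in IRI replicate 1 and in all 3 libraries with MK-8617, and of 7 B and plasma cell markers 0 are listed. Of 10 endothelial markers 2 are listed, and these, Flt1 and Emcn, had summed FPKM of 19.6 to 24.4 against 23.1 to 29.9. They moved in opposite directions: Flt1 rose by 0.98 ± 0.17, and Emcn was at -0.33 ± 0.12 and did not pass. The part of these cell types in the changes of the interferon-induced and MHC genes was not tested.

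**Figure D3:**
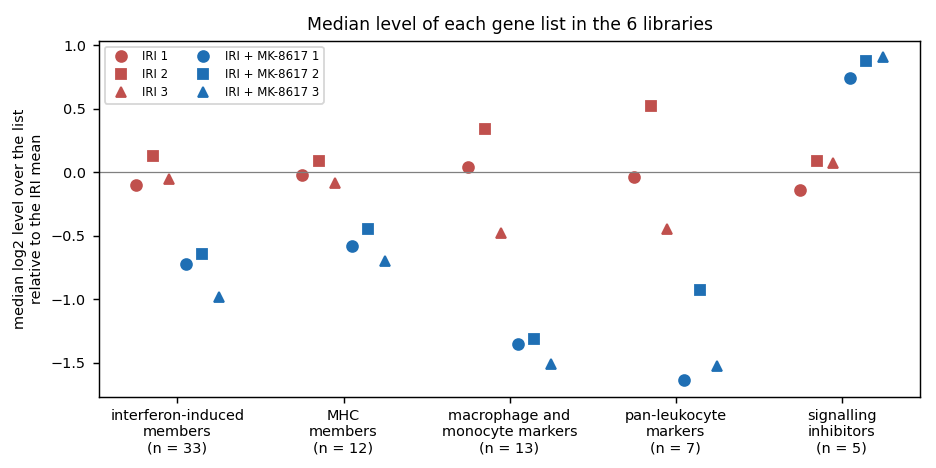
The vertical axis is the median, over the tested genes of each list, of log2(normalised reads + 1) relative to the IRI mean, with 1 point per library (red, IRI; blue, IRI with MK-8617). The interferon-induced medians were -0.72, -0.64 and -0.98 with MK-8617 and the MHC medians -0.58, -0.45 and -0.70, macrophage and leukocyte medians lay lower, and those of the 5 signalling inhibitors were 0.74 to 0.91.

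The change of a gene moved with the length of its transcript in these libraries. Over all tested genes the median change was -0.74 in the shortest of 5 length classes of equal size and 0.40 in the longest, and 61.4% of the shortest and 22.5% of the longest fell. Interferon-induced members had a median transcript of 2241 nucleotides and MHC members of 1709, against 2652 over all tested genes. In each class the median of the members lay below that of all tested genes: from shortest to longest, 9 of 11, 10 of 13, 5 of 9, 6 of 8 and 2 of 4 fell, and their medians were -1.15, -0.89, -0.57, -0.62 and -0.53. Ddx58 and Ifit2 belong to the class of 3175 to 4636 nucleotides, whose median over all tested genes was 0.38, and both fell. With the length trend removed, a step that moved the median of all genes by 0.273, 24 interferon-induced and 8 MHC members fell, and with trends on length and GC content removed (a shift of 0.238) 24 and 7 fell. The falls of Ifitm3 (-0.12), Isg15 (-0.26), Ifi30 (-0.05), H2-Q7 (-0.26) and H2-Q6 (-0.32) and the rise of Irf2 (0.35) did not pass with both trends removed. Among members that had not passed, Eif2ak2 (-0.67), Gbp2 (-0.70) and Ifi44 (-1.03) then did. Bst2 was at -0.88, Ifi27l2a at -1.73 and Stat3 at 0.81, and all 3 still passed. Whether length itself acts on these values was not tested.

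**Figure D4:**
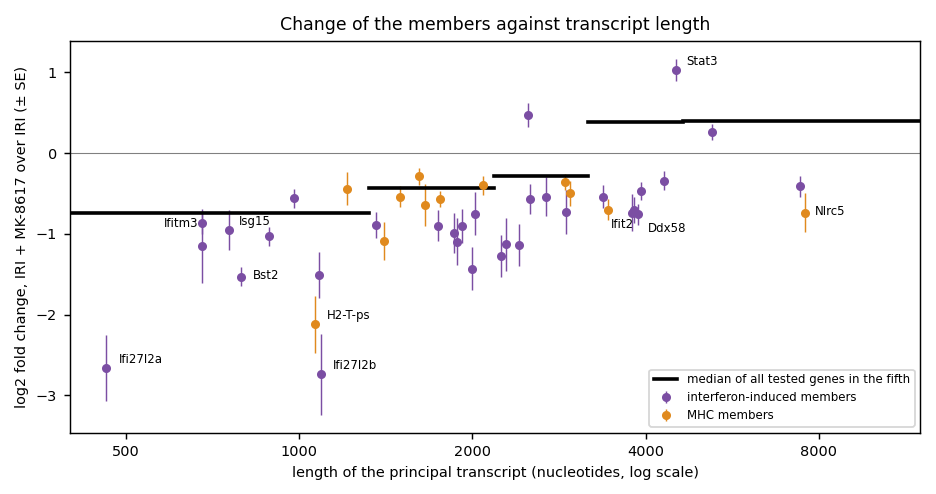
Each point is 1 tested member described in the text, with transcript length in nucleotides on a log scale against its log2 fold change and standard error, and black bars are the medians of all tested genes in 5 length classes, from -0.74 to 0.40. Most members lie below the bar of their class, while Ifitm3 and Isg15 lie near it.

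The other genes of the interferon and antigen presentation pathways were taken from lists that hold 146 symbols beside the members. Of these 58 are in the table and 57 were tested, and 20 fell (35.1%) and 22 rose (38.6%), with a median of 0.29. These shares are near those over all tested genes, 38.7% and 35.7%. Without MK-8617 replicate 1, 10 fell and 11 rose, without MK-8617 replicate 3, 13 and 14, and without IRI replicate 1, 15 and 13. With the length trend removed the median was 0.09, and 17 fell and 11 rose. No interferon gene of the list is in the table. The receptor chain gene Ifngr1 (0.42 ± 0.11) and the kinase gene Jak2 (0.49 ± 0.12) rose, and Ifngr2 was at -0.29 ± 0.11 (adjusted p = 0.0835). Ifngr2 passed as lower with the length trend removed (-0.54) and with both trends removed (-0.50). The call of Ifngr1 was lost without IRI replicate 1 (0.40) or MK-8617 replicates 2 (0.43) or 3 (0.35), and that of Jak2 without IRI replicate 1 (0.43) or MK-8617 replicate 3 (0.38) and with the length trend removed (0.16).

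In nucleic acid sensing and its signalling, 6 of 9 genes rose and 1 fell, where 35.7% of all tested genes rose. The 6 became 3 without MK-8617 replicate 1 or without MK-8617 replicate 3, 4 without IRI replicate 1 or 2, and 2, with 2 lower, once the length trend was removed. Tmem173, which encodes the DNA response adaptor STING, rose by 0.80 ± 0.16, and Myd88, the adaptor of most Toll-like receptors, by 0.55 ± 0.10. Trim25, the ubiquitin ligase that activates RIG-I, rose by 0.58 ± 0.12 (0.25 and not passing with the length trend removed). Traf6 (0.69 ± 0.18), Tbk1 (0.37 ± 0.11) and Adar (0.39 ± 0.12) rose too, and with the length trend removed they were at 0.35, 0.19 and 0.13 and did not pass. Without MK-8617 replicate 1 (0.69, 0.37 and 0.35) or replicate 3 (0.58, 0.31 and 0.42) none of these 3 passed, and Tbk1 and Adar did not pass without IRI replicate 1 (0.41 and 0.37) or 2 (0.30 and 0.29), nor Adar without MK-8617 replicate 2 (0.39) or by edgeR (0.38). The gene that fell was Unc93b1 (-0.47 ± 0.14), the chaperone of endosomal Toll-like receptors, a call lost without any 1 library other than IRI replicate 3, with values from -0.54 (without MK-8617 replicate 2) to -0.39 (without IRI replicate 2).

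All 5 listed inhibitors of interferon and cytokine signalling that are in the table rose, where 35.7% of all tested genes rose. The other inhibitors of the list are not in the table and were not analysed here. Socs3, a feedback inhibitor of JAK kinases that STAT3 is known to induce, had 513, 773.3 and 708.4 normalised reads in IRI and 1636, 1593 and 2031 with MK-8617, a rise of 1.41 ± 0.16 (adjusted p = 0.000592). Cish, of the same family, rose by 1.58 ± 0.16 (adjusted p = 0.000291), and Ptpn2, a phosphatase that acts on JAK and STAT proteins, by 0.78 ± 0.11 (adjusted p = 0.00117). The groups of these 3 genes did not overlap, and their calls held in all 19 other settings. Usp25 (0.54 ± 0.16) and Trim24 (0.42 ± 0.10) rose in the main fit and did not pass with the length trend removed (0.22 and 0.13), without MK-8617 replicate 1 (0.62 and 0.40) or without IRI replicate 1 (0.56 and 0.34). Usp25 was also not past the threshold without IRI replicate 2 (0.46) or MK-8617 replicate 3 (0.35).

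Among 21 other tested genes that were listed as interferon-stimulated, 11 fell and 5 rose, where 38.7% of all tested genes fell and 35.7% rose. The counts were 5 and 1 without MK-8617 replicate 1, 7 and 0 without MK-8617 replicate 3, and 9 and 2 without IRI replicate 1. They were 8 and 2 without IRI replicate 2 or with the length trend removed. Ly6e, a membrane protein that restricts coronavirus entry, fell by 1.07 ± 0.11 (adjusted p = 0.000343) and Ly6a, or Sca-1, by 0.75 ± 0.11 (adjusted p = 0.00149, and -0.27 and not passing with the length trend removed). Slfn9 had 119.3, 397.1 and 114.1 normalised reads in IRI and 27.7, 18.1 and 12.8 with MK-8617, a change of -3.17 ± 0.50 (adjusted p = 0.00213). IRI replicate 2 was far above the other IRI libraries there, and without it the change was -2.58 and still passed. Tor3a fell by 0.85 ± 0.16. Those that rose were Ifrd1 (0.77 ± 0.17), Bcl3 (0.69 ± 0.16), Apobec3 (0.40 ± 0.12), Azi2 (0.31 ± 0.10) and Znfx1 (0.29 ± 0.09), and none of the 5 passed without MK-8617 replicate 3, at 0.73, 0.66, 0.42, 0.31 and 0.29. Bcl3 (0.65), Apobec3 (0.42), Azi2 (0.26) and Znfx1 (0.30) did not pass without MK-8617 replicate 1 either, nor did Apobec3, Azi2 and Znfx1 without IRI replicate 1 (0.38, 0.31 and 0.35) or IRI replicate 2 (0.31, 0.30 and 0.28). With the length trend removed Apobec3 (0.33), Azi2 (0.09) and Znfx1 (-0.06) did not pass, and with both trends removed Ifrd1 (0.51) did not.

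Of 19 partners of antigen processing 8 fell and 4 rose, where 38.7% of all tested genes fell and 35.7% rose. The counts were 5 and 2 without MK-8617 replicate 1, 6 and 2 without MK-8617 replicate 2, and 6 and 7 without MK-8617 replicate 3. The inducible subunits of the immunoproteasome, which cuts peptides for class I, were among the largest changes. Psmb8 had 314.2, 398.9 and 333.6 normalised reads in IRI and 137.3, 121.7 and 112.7 with MK-8617, a change of -1.48 ± 0.16 (adjusted p = 0.000476). Psmb10 fell by 1.2 ± 0.15, the proteasome activator gene Psme2 by 1.49 ± 0.20 and Psmb9 by 1.09 ± 0.29. The calls of Psmb8, Psmb10 and Psme2 held in all 19 other settings, and that of Psmb9 was lost when any library other than IRI replicate 3 was left out, with values from -1.13 (without MK-8617 replicate 1) to -0.82 (without IRI replicate 2). Psmb9 also did not pass with the length trend removed (-0.84) or with both trends removed (-0.77). Ctss, the cathepsin that trims the class II invariant chain, fell by 0.96 ± 0.13, while Cd74, the invariant chain itself, was at 0.32 ± 0.14 (adjusted p = 0.13) and passed as higher with the length trend removed (0.55), with both trends removed (0.63) and without MK-8617 replicate 3 (0.46). The genes that rose included Fcgrt, the neonatal Fc receptor (0.90 ± 0.10), and the cathepsin gene Ctsl (0.57 ± 0.11, and 0.23 and not passing with the length trend removed). Azgp1, a class I-like lipid-binding protein gene, rose by 1.46 ± 0.38 and did not pass without MK-8617 replicate 1 (1.30) or 2 (1.35), and Creb1 rose by 0.39 ± 0.10, a call lost without IRI replicate 3 (0.33) or MK-8617 replicates 1 (0.36) or 2 (0.40). Creb1 did not pass with the length trend removed either (0.07).

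**Figure D5:**
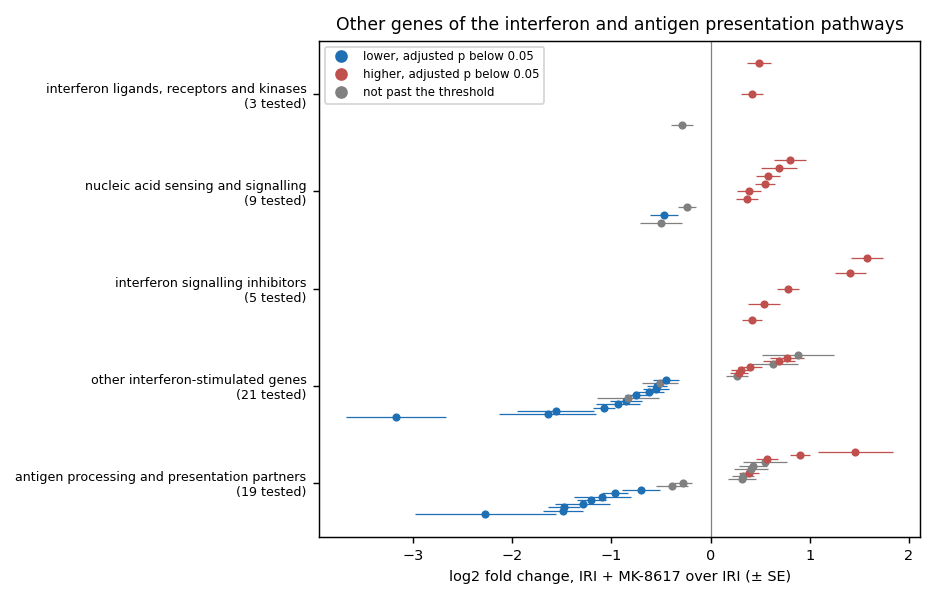
Each point is 1 tested pathway gene outside the members, with its log2 fold change and standard error on the horizontal axis and 1 band per list (blue, fell; red, rose; grey, did not pass). The 5 inhibitors all lie to the right of 0, from 0.42 to 1.58, while the other interferon-stimulated genes and the antigen processing partners lie on both sides.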

How the data were processed

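RNA was sequenced from 6 mouse kidney samples (3 IRI, 3 IRI with MK-8617). Groups follow the titles, although the treatment field of MK-8617 replicates 2 and 3 reads MK8618 and MK8619, and the design text speaks of tumors where the labels name kidney. The tissue label was followed. RNA was extracted with TRIzol and made into NEBNext Ultra libraries, per the labels' protocols, with no statement on strand. The submitters' processing notes name HISAT2 2.0.5 and fastp, featureCounts 1.5.0-p3, CASAVA 1.8 and also DESeq2 1.20.0. They give the build as GRCh38, but the deposited gene identifiers are mouse. Of 7340 identifiers 7338 matched GENCODE M21 (GRCm38), from which the coordinates of whole genes and the lengths were taken.

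For the deposited signal values the authors had divided each gene count by the size factor of its library, and whole reads were recovered for 100% of values (tolerance 0.001). Raw counts are deposited only for IRI replicate 3 and equalled the recovered reads in 7340 genes. The authors' FPKM, log2 fold changes and p-values were deposited beside them. The deposited adjusted p-values imply that the authors adjusted over 18811 genes (11560 of them not listed and not analysed here), and 89 listed genes had a deposited adjusted p of 1. A further 13 empty columns were not used, and 11 symbols turned into dates were restored.

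Because values are normalised, limma 3.58.1 (trend, robust; R 4.3.3) was run on log2(value + 1), so fold changes of low genes are understated. filterByExpr of edgeR 4.0.16 on recovered reads kept 6961 genes and removed 379. p-values were adjusted by Benjamini-Hochberg over 18811 genes with a threshold of 0.05. The scripts were tested on simulated data. Alternatives were other pseudocounts and filters, library-total and TMM scaling, edgeR and DESeq2 1.42.0 on recovered reads, the authors' deposited values, adjustment over the tested genes, a replicate block, loess trends on transcript length and GC content (span 0.5), and leaving out each library.

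The members, the pathway and marker lists and the promoter motifs were chosen with earlier results of these data known. Members were named by role, and 1 that is counted in the totals is not reported here. Values per library are given for Bst2, Ddx58, Ifit2 and Ifit3, for up to 4 members of a role with the smallest adjusted p, and for members that moved against their class or lay within 2-fold of the threshold, with H2-Bl, H2-DMa, H2-Ab1 and Gbp3 added. Of other lists, genes with the smallest adjusted p or against the list's direction were named, as were leukocyte markers whose call changed with the length trend removed.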

Additional observations from a re-analysis of the deposited data

How the results depend on the processing

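Of the 34 members that passed the test, 17 passed in each of 19 other settings in which they were tested (13 interferon-induced, 4 MHC). Replicate numbers are shared by the groups, but same-numbered samples did not deviate together in each pair (correlations 0.021, 0.116 and 0.115 over 6961 genes), although each sample correlated best with its own number. With a replicate block 25 interferon-induced members fell and 1 rose, and 9 MHC members fell, and the block ended the calls of Rsad2 (-0.74), Irf2 (0.47) and Nlrc5 (-0.74) and brought those of H2-Ab1, Igtp and Gbp2. With a mean of at least 5 CPM required, 26 interferon-induced members were tested, of which 15 fell and 1 rose. After removal of the trend on length, or of both length and GC trends, 1 interferon-induced member and 11 pathway genes rose. Leaving out 1 library gave 16 to 26 interferon-induced members that fell and 1 to 2 that rose, 4 to 10 MHC members that fell, and 10 to 20 pathway genes that fell and 11 to 20 that rose. The fewest that fell in each class came without MK-8617 replicate 1. With TMM scaling 6 MHC members fell, and H2-Q6 (-0.33), Tap1 (-0.43) and Nlrc5 (-0.68) did not pass. The sign turned for Stat5b (-0.07), Znfx1 (-0.06) and Psme1 (0.11) with the length trend removed, and for Psme1 (0.15) and Creb1 (-0.05) with both trends removed. None of these 4 genes passed the test there, and the cause was not tested. Since the authors kept only genes with a p under 0.05, every share given applies to the listed genes alone. Members with few reads, such as Ifi27l2b and H2-Bl, are limited by depth: 3 reads in a library correspond to 0.154 to 0.178 CPM, which covers counting error only.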
